A study of Mus musculus with 18 samples.

Results

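The genes followed here were 10: 9 that are known mainly from endothelial cells (Pecam1, Cdh5, Kdr, Flt1, Tek, Tie1, Emcn, Egfl7 and Esam) and Vegfa, the gene of vascular endothelial growth factor A. They were taken by symbol from 38243 annotated genes, each symbol matched a single gene identifier, and 6 of the 10 passed the study's filter, by which 50% or more of the 18 libraries must exceed 1 FPKM, as did 11469 genes in all. Pecam1, Cdh5, Kdr, Emcn, Egfl7 and Vegfa passed, in 12, 17, 10, 10, 10 and 18 libraries above 1 FPKM. Flt1, Tek, Tie1 and Esam, above 1 FPKM in 7, 7, 6 and 8 libraries, did not. The study asked how a heterozygous S252W substitution in fibroblast growth factor receptor 2, a cause of Apert syndrome, affects the skeletal tissues of the mandible. Laser capture on unfixed frozen head sections gave mandibular bone, Meckel's cartilage (MC) and mandibular condylar cartilage from each of 6 female embryos at E16.5, 3 of them Fgfr2+/S252W and 3 Fgfr2+/+ littermates, all on a C57BL/6 background by the labels (C57BL6/J in the study's methods), which made 18 RNA-seq libraries in 6 groups of 3. Both alleles of Fgfr2 add to the same row of a gene count table, so the genotype could not be checked from these counts.

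Vessels are lined by endothelial cells, which hold together through VE-cadherin (Cdh5), PECAM-1 (Pecam1) and ESAM (Esam), carry the sialomucin endomucin (Emcn) chiefly on capillaries and veins, and secrete EGFL7 (Egfl7). VEGFA signals mainly through VEGFR2 (Kdr), while VEGFR1 (Flt1) binds the ligand tightly and can act as a decoy. TIE2 (Tek) is the receptor of the angiopoietins, and TIE1 (Tie1) is its co-receptor without a well-settled ligand of its own. Bone is vascularised as it forms, whereas cartilage is largely avascular until hypertrophic chondrocytes make VEGFA and vessels enter. Osteoblasts also make VEGFA, so the ligand and the endothelial genes need not come from the same cells.

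On GRCm38, the coordinates in the count tables, the members lie on 8 chromosomes. Pecam1 spans chr11:106654217-106750628 on the minus strand, Cdh5 chr8:104101625-104144502 on the plus strand, Emcn chr3:137341067-137432185 on the plus strand and Egfl7 chr2:26580014-26592684 on the plus strand. Kdr (chr5:75932827-75978458, minus strand) and Flt1 (chr5:147561604-147726011, minus strand) share a chromosome, as do Tek (chr4:94739289-94874976, plus strand) and Tie1 (chr4:118471191-118490061, minus strand). Esam spans chr9:37528078-37538319 on the plus strand and Vegfa chr17:46016993-46032377 on the minus strand. No exon of a member overlapped an exon of another annotated gene, and the microRNA gene Mir126a lies within Egfl7. Promoters were found in the RefSeq table (GRCm38.p6) for 7 of the 10, that is, Kdr, Flt1, Tek, Tie1, Emcn, Egfl7 and Vegfa. Those of a VEGF receptor, of a surface mucin gene with a large step between bone and condylar cartilage and of the ligand are shown here, 5′ to 3′ on the gene's strand, so that the ligand can be set against 2 of the genes of the cells it acts on. Capitals mark the letters GGAA or TTCC, the core bound by ETS factors, and GGGCGG or CCGCCC, the GC box, on either strand, where neighbouring matches may share letters.
Flt1, chr5:147726012-147726261, minus strand: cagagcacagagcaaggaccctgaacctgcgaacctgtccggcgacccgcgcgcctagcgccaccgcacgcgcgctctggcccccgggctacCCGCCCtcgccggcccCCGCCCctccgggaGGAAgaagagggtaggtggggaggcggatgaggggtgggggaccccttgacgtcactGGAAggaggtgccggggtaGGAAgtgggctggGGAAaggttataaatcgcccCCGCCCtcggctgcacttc
Emcn, chr3:137340828-137341066, plus strand: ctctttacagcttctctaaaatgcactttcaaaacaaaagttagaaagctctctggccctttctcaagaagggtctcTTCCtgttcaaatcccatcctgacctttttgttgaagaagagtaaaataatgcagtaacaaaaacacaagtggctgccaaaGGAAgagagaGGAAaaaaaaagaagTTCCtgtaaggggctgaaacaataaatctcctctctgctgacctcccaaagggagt
Vegfa, chr17:46032378-46032627, minus strand: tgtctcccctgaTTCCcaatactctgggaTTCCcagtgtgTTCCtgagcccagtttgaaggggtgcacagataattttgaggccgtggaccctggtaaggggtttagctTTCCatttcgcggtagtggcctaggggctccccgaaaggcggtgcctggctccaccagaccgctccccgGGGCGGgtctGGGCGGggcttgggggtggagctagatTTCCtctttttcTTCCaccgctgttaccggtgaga

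Over the 250 bases before the start, the ETS core occurred 4 times for Kdr, Flt1 and Emcn, 2 times for Tek and 7 times for Tie1. The 3 RefSeq starts of Egfl7 had 5, 3 and 1 matches, and the 2 of Vegfa had 6 and 2. Of 32851 promoters of the same length, 93.4% held at least 1 ETS core, with a median of 3, and 8.69% held 6 or more. The GC box occurred 3 times for Flt1, 2 times for Kdr, 2 and 1 times at the 2 starts of Vegfa and 4 times at the third start of Egfl7, against 32.7% of all promoters with at least 1. No GC box was found in these windows for Tek, Tie1, Emcn and the other starts of Egfl7. These matches are letters in a window and no binding was measured.

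The libraries held 8218548 to 15585778 counts in genes, with a median of 10581032. Mitochondrial genes took 19.4 to 38.1% of them. The ribosomal RNA-related gene Gm42418 took 5.58 to 9.33% in bone, 24.1 to 39.4% in MC and 10.9 to 20.2% in condylar cartilage, and the TMM factors, which scale each library to a common set of genes, were 1.2 to 1.48, 0.491 to 1.09 and 0.896 to 1.27. Levels are therefore given as counts per 1000000 of the TMM-scaled library size (CPM), and as FPKM, which divides by exon length and raw library total, where genes are compared with each other. The tissue labels were checked with marker lists. Summed bone markers were 13160 to 31160 CPM in bone, 4363 to 17388 CPM in condylar cartilage and 1431 to 3241 CPM in MC, and summed cartilage markers were 23034 to 30564 CPM in condylar cartilage and 56.8 to 333 CPM in bone, but in MC they ran from 330 to 8320 CPM. Both extremes of the MC range matter here. MC of Fgfr2+/S252W embryo 1 had Col2a1, the main collagen of cartilage, at 7201 CPM against 212 to 2497 CPM in the other MC libraries. MC of Fgfr2+/+ embryo 1 had the lowest Col2a1, 212 CPM, together with the osteoblast genes Ibsp at 230 CPM (1.87 to 9.63 CPM in the other MC libraries) and Sp7 at 158 CPM (11.8 to 58.6 CPM).

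The endothelial genes were high in bone, lower and uneven in MC, and lowest in condylar cartilage, while the levels of Vegfa overlapped in the 3 tissues. Summed over the 9 endothelial genes, bone had 246 to 333 CPM with a median of 281, MC 25.9 to 123 CPM with a median of 71.9, and condylar cartilage 7.16 to 31.1 CPM with a median of 18.3 (6 libraries each). These sums rest on 3678 to 6187 counts in bone, 138 to 1015 in MC and 107 to 345 in condylar cartilage, so single genes in the cartilages are given from few counts. In pieces of tissue, fewer cells of a type and less RNA per cell cannot be told apart. Within bone, Cdh5 was the most abundant member per length, at 31.8 ± 5.13 FPKM (SD, n = 6), and its lowest library, 22.7 FPKM, lay above every library of the other 9. Emcn (13.7 ± 1.42 FPKM), Pecam1 (11.7 ± 1.98 FPKM), Vegfa (11.3 ± 1.48 FPKM) and Kdr (9.55 ± 1.58 FPKM) followed. Tek, Egfl7, Flt1, Tie1 and Esam came last, at 7.34 ± 1.35, 6.98 ± 2.20, 4.71 ± 0.868, 3.72 ± 0.531 and 3.62 ± 0.619 FPKM. Below Cdh5, the ranges of neighbours in this order overlapped.

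**Figure D1:**
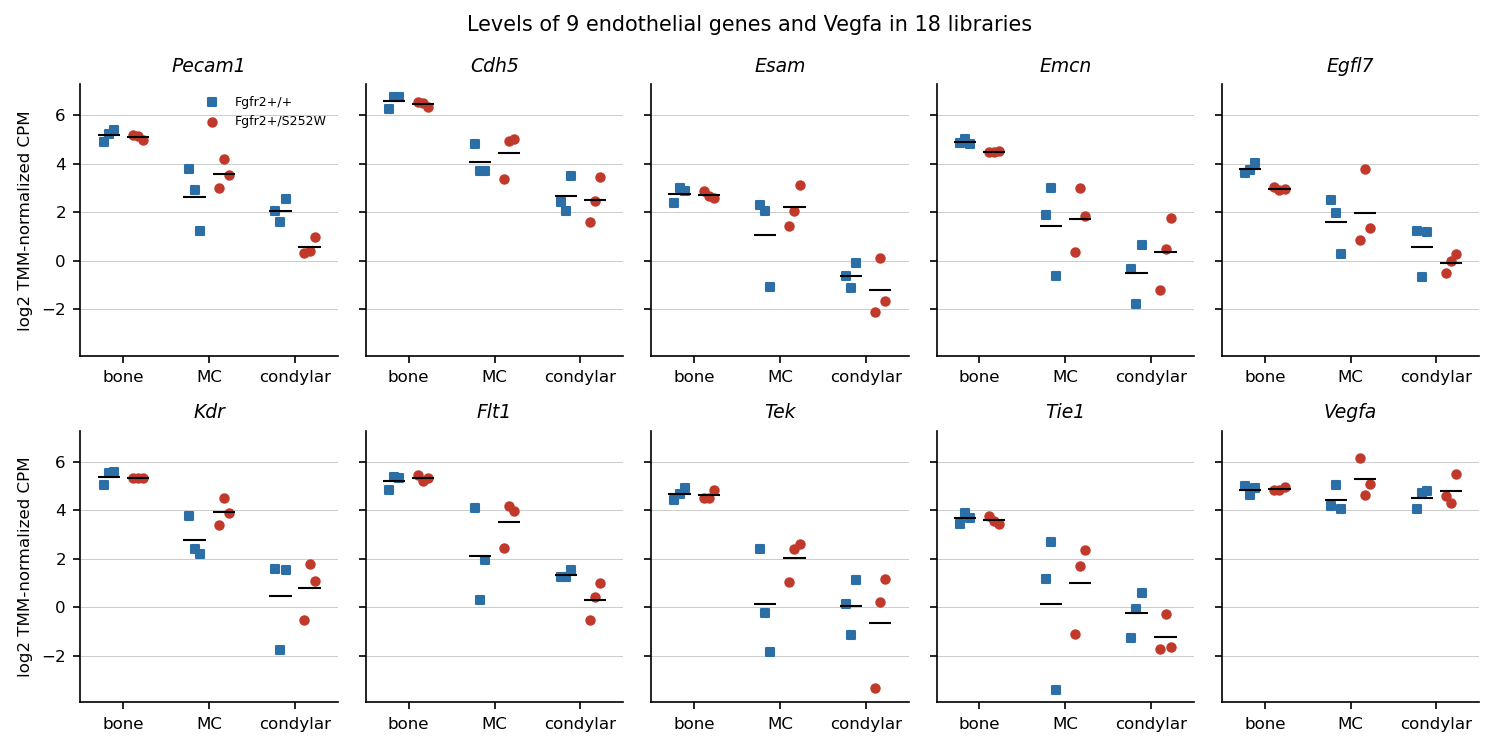
The plot of levels shows log2 CPM of each of the 10 genes in the 18 libraries by tissue, with blue squares for Fgfr2+/+, red circles for Fgfr2+/S252W and black bars for the mean of each group of 3. The endothelial genes step down from bone to MC to condylar cartilage and spread most in the cartilages, whereas Vegfa lies at 16.4 to 71.2 CPM throughout.

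Among the genes of cell contact, Cdh5 was the best covered, with at least 45 counts in every library. In bone it had 92.6, 90.7 and 82.2 CPM in Fgfr2+/S252W embryos 1, 2 and 3 and 76.1, 109 and 108 CPM in Fgfr2+/+ embryos 1, 2 and 3. In MC it had 10.3, 30.4 and 32.2 CPM and 28.3, 12.8 and 13.1 CPM in the same order, and in condylar cartilage 3.01, 5.41 and 10.8 CPM and 5.41, 4.15 and 11.3 CPM. All 6 bone libraries were above all 12 cartilage libraries, and the lowest MC library overlapped the highest condylar ones. Cdh5 was 4.49-fold higher in bone than in MC (log2 2.17, SE 0.27, limma adjusted p = 5.94e-06) and 15.1-fold higher in bone than in condylar cartilage (log2 3.91, SE 0.30, adjusted p = 1.23e-08), and it was lower in condylar cartilage than in MC (log2 difference -1.75, SE 0.29, adjusted p = 5.20e-05).

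Pecam1 followed the same order. It had 36.8, 35.3 and 31.9 CPM in Fgfr2+/S252W bone and 29.5, 37.9 and 42.6 CPM in Fgfr2+/+ bone, against 2.25 to 18 CPM in MC and 1.21 to 5.78 CPM in condylar cartilage. No bone library overlapped a cartilage library, whereas MC and condylar cartilage overlapped through Fgfr2+/+ embryo 3, the lowest of MC and the highest of condylar cartilage. Bone was above MC by a log2 difference of 1.88 (SE 0.31, limma adjusted p = 9.28e-05) and above condylar cartilage by 3.85 (SE 0.30, adjusted p = 1.59e-08), and condylar cartilage against MC was -1.97 (SE 0.31, adjusted p = 3.39e-05). Esam, a gene of endothelial tight junctions, was the least expressed of the 3, with 5.22 to 8.0 CPM in bone, 0.375 to 8.58 CPM in MC and 0.201 to 1.03 CPM in condylar cartilage. Its bone and MC libraries overlapped, MC of Fgfr2+/S252W embryo 3 being the highest of the 18.

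Emcn and Egfl7 had the fewest counts among the members that passed the filter. Emcn had 22.3 to 32.8 CPM in bone (median 25.8), 0.562 to 8.03 CPM in MC (median 3.56) and 0.249 to 3.33 CPM in condylar cartilage (median 1.06), with no overlap between bone and the cartilages. Its log2 differences were 2.98 for bone against MC (SE 0.43, limma adjusted p = 2.88e-05), 4.75 for bone against condylar cartilage (SE 0.53, adjusted p = 1.20e-06) and -1.77 for condylar cartilage against MC (SE 0.49, adjusted p = 0.00511). The last of these no longer passed without the libraries of Fgfr2+/+ embryo 2 (-1.12, adjusted p = 0.0670). Egfl7, which encodes a secreted protein of the vessel wall, had 7.58 to 16.4 CPM in bone, 1.12 to 13.5 CPM in MC and 0.582 to 2.33 CPM in condylar cartilage. MC of Fgfr2+/S252W embryo 2, at 13.5 CPM, lay within the bone range, and the other 5 MC libraries were below it. Bone against MC was 1.41 (SE 0.40, adjusted p = 0.00761), bone against condylar cartilage 3.08 (SE 0.42, adjusted p = 1.16e-05) and condylar cartilage against MC -1.67 (SE 0.41, adjusted p = 0.00215). The first of the 3 differences missed the threshold without the libraries of Fgfr2+/S252W embryo 1 (1.10, adjusted p = 0.0620).

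The receptors stepped down steeply from bone to condylar cartilage. Kdr had 39.8, 40.5 and 40.2 CPM in Fgfr2+/S252W bone and 33.0, 46.7 and 48.2 CPM in Fgfr2+/+ bone. In MC it had 10.4, 23.0 and 14.9 CPM and 13.4, 5.17 and 4.50 CPM, and in condylar cartilage 0.669, 3.44 and 2.05 CPM and 2.93, 0.249 and 2.89 CPM. The 3 tissues did not overlap for Kdr, the only endothelial member of which that was true. Kdr differed by a log2 of 1.82 between bone and MC (SE 0.33, limma adjusted p = 0.000254), 4.50 between bone and condylar cartilage (SE 0.46, adjusted p = 4.14e-07) and -2.68 between condylar cartilage and MC (SE 0.41, adjusted p = 2.65e-05).

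Flt1 had 29.0 to 43.4 CPM in bone (median 39.9), 1.15 to 18.2 CPM in MC (median 10.5) and 0.669 to 2.89 CPM in condylar cartilage (median 2.13). Tek had 21.5 to 30.0 CPM in bone, 0.187 to 5.95 CPM in MC and 0.0669 to 2.18 CPM in condylar cartilage. For Tie1 the ranges were 10.7 to 14.8 CPM, 0 to 6.31 CPM and 0.257 to 1.44 CPM. Bone did not overlap the cartilages for any of these 3 receptors, and the cartilages overlapped each other for all 3. Tie1 was at 0 in MC of Fgfr2+/+ embryo 3, a library in which Tek had 1 count and Esam 2 counts.

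Of the 5 endothelial genes that passed the filter, 5 were higher in bone than in MC, against 49.5% of all tested genes called in either direction and 24.9% called higher. The same 5 were higher in bone than in condylar cartilage (47% called, 24.3% higher) and lower in condylar cartilage than in MC (57.7% called, 29.1% lower). Their median log2 differences in these comparisons were 1.88, 3.91 and -1.77, beside -0.0024, -0.0027 and -0.0077 over all genes. A gene that is above 1 FPKM mostly in bone had to differ between tissues to pass this filter, and for Kdr, Emcn and Egfl7 the libraries above 1 FPKM were 10 of 18. The members left out, whose counts were also highest in bone, were therefore fitted with a looser filter on counts (filterByExpr, 14881 genes). There, bone exceeded MC by a log2 difference of 2.07 for Flt1 (SE 0.41, limma adjusted p = 0.000558), 3.21 for Tek (SE 0.57, adjusted p = 0.000186) and 2.67 for Tie1 (SE 0.60, adjusted p = 0.00138), where 48.1% of genes were called. Esam gave 0.90 (95% interval -0.03 to 1.83, adjusted p = 0.101) and did not pass, though it did pass without the embryo block (1.06, adjusted p = 0.0267) and without Fgfr2+/+ embryo 1 (1.46, adjusted p = 0.0371).

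Against condylar cartilage, bone was higher by 4.38 for Flt1, 4.72 for Tek, 4.32 for Tie1 and 3.58 for Esam (log2 differences, limma adjusted p at most 1.86e-05, with 48.9% of genes called). Between the cartilages, condylar cartilage against MC was -2.31 for Flt1 (adjusted p = 0.000161), -2.67 for Esam (adjusted p = 0.000148), -1.65 for Tie1 (adjusted p = 0.0215) and -1.50 for Tek (adjusted p = 0.0255), with 57.5% of genes called. The calls of Tek and Tie1 held under 5 and 6 of 15 alternatives. Neither passed without the embryo block (-1.52 and -1.23), with quality weights (adjusted p = 0.184 and 0.185), with no filter (adjusted p = 0.0520 and 0.0524) or on raw totals, and each was lost in 4 of 6 fits that left out an embryo, where Tie1 was -1.07 without Fgfr2+/+ embryo 2 and Tek -0.54 without Fgfr2+/+ embryo 1. Tek also did not pass with DESeq2 (adjusted p = 0.0865). Leaving out Fgfr2+/+ embryo 1 also changed Flt1, to 3.02 for bone against MC and -1.40 for condylar cartilage against MC, and Tek for bone against MC, to 4.26. Without Fgfr2+/+ embryo 3, the differences between condylar cartilage and MC were -2.38 for Emcn, -2.18 for Tek and -2.35 for Tie1, and without Fgfr2+/+ embryo 2, bone against MC was 3.27 for Tie1. With no filter on expression, 8, 9 and 7 of the 9 endothelial genes passed in the 3 comparisons, where 50.3, 30.9 and 40.7% of 25857 genes were called.

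The ranges of the libraries were also compared. Among the 5 endothelial genes that passed the filter, all 6 bone libraries were above all 6 MC libraries for 4, with Egfl7 the exception, where 13.4% of the filtered genes had that order. For bone above condylar cartilage it was 5 of 5, against 16.3%, and for condylar cartilage below MC it was 1 of 5, Kdr, against 14.2%. Since Kdr, Emcn and Egfl7 passed the filter mainly through bone, it partly set the order of bone above cartilage for them. Of the 4 genes outside the filter, Flt1, Tek and Tie1 had all bone libraries above all MC libraries, all 4 had them above all condylar ones, and none separated the cartilages. Bone was thus without overlap with either cartilage for 7 of the 9 genes, and the cartilages were without overlap for Kdr alone. That order does not compare the size of a step with the spread between embryos.

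Lists of other cells that travel with vessels were mixed, and the sums of 2 of them rest on 1 gene each. Beside their counts, 49.5% of all genes tested were called for bone against MC (24.9% higher in bone) and 47% for bone against condylar cartilage (24.3% higher in bone). Red blood cell markers summed to 313 to 1503 CPM in bone, 106 to 475 CPM in MC and 33.2 to 222 CPM in condylar cartilage, and of the 5 tested, 3 were higher in bone than in MC and 5 higher in bone than in condylar cartilage. Macrophage markers summed to 69.8 to 135, 17.5 to 90.1 and 1.94 to 9.75 CPM, where Csf1r made up most of the bone sum (58.7 to 132 CPM). In the study, a Csf1r probe labelled preosteoclasts and osteoclasts of the mandible, so the bone sum does not stand for macrophages alone. Of the 3 macrophage genes tested, Csf1r was higher and C1qb and C1qc were lower in bone than in MC, and all 3 were higher in bone than in condylar cartilage. Markers of mural cells, which wrap vessels, summed to 162 to 229 CPM in bone, 138 to 346 CPM in MC and 853 to 1328 CPM in condylar cartilage, where Cspg4 alone had 831 to 1272 CPM. Of the 6 mural genes tested, 5 were higher and 1, Cspg4, lower in bone than in condylar cartilage, while 1 was higher and 2 lower in bone than in MC. Their part in the endothelial differences was not tested.

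**Figure D2:**
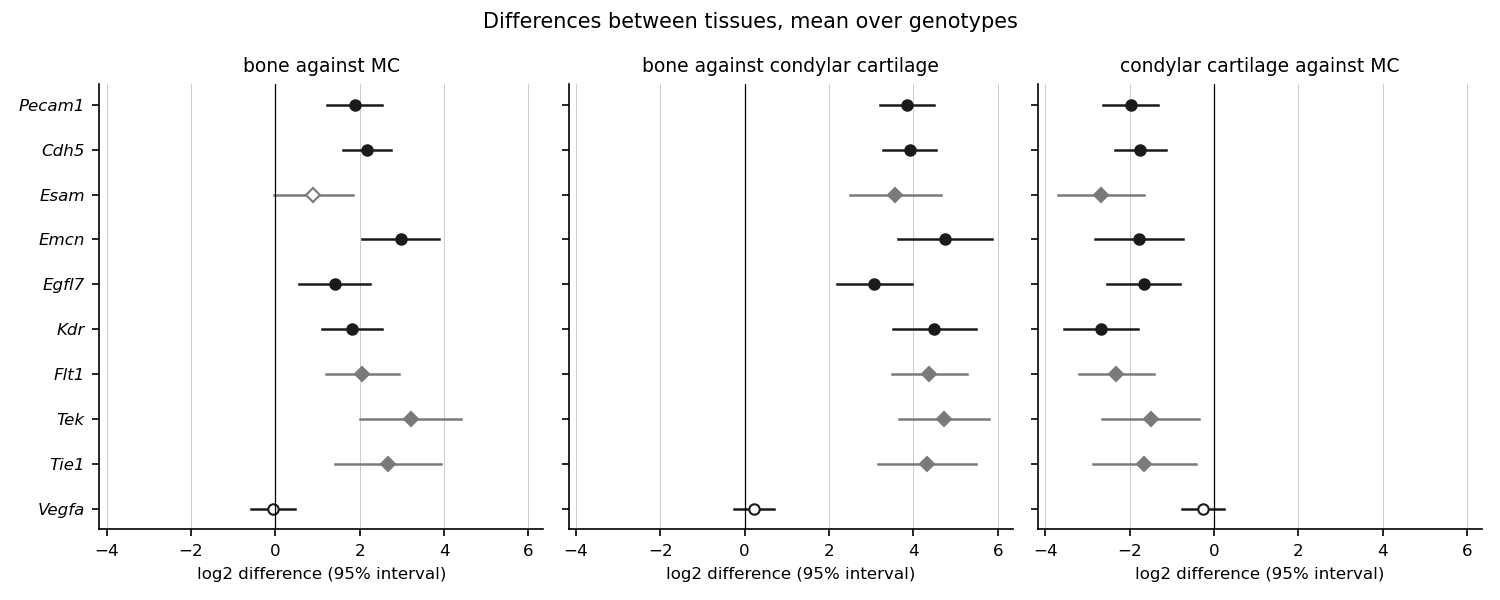
The plot of tissue differences gives the log2 difference of each gene with its 95% interval for bone against MC, bone against condylar cartilage and condylar cartilage against MC. Black circles come from the fit with the 1 FPKM filter and grey diamonds (Flt1, Tek, Tie1 and Esam) from the looser filter, filled where the adjusted p was below 0.05. The differences of the endothelial genes reach 4.75 for Emcn, the interval of Esam includes 0 for bone against MC, and the intervals of Vegfa include 0 in all 3.

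Vegfa did not follow the endothelial genes. It had 28.6, 28.7 and 31.4 CPM in Fgfr2+/S252W bone and 31.7, 24.6 and 30.3 CPM in Fgfr2+/+ bone. In MC the values were 71.2, 25.0 and 34.1 CPM and 18.3, 33.3 and 16.5 CPM, and in condylar cartilage 24.2, 19.9 and 44.6 CPM and 16.4, 26.3 and 27.9 CPM. The ranges of the 3 tissues overlapped, bone was the most even, and the highest library by far was MC of Fgfr2+/S252W embryo 1, which was also the MC library richest in Col2a1. The log2 differences were -0.05 for bone against MC (95% interval -0.58 to 0.48, limma adjusted p = 0.882), 0.22 for bone against condylar cartilage (-0.25 to 0.69, adjusted p = 0.450) and -0.27 for condylar cartilage against MC (-0.77 to 0.23, adjusted p = 0.353). None passed.

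The scaling bears on these tissue differences. With raw library totals in place of TMM factors, the median of all genes moved by 1.07 (log2) for bone against MC, 0.30 for bone against condylar cartilage and 0.77 for condylar cartilage against MC, and the share of higher among called genes went from 50.4, 51.7 and 49.5% to 93.8, 73.3 and 82.9%. Vegfa then gave 1.04 for bone against MC (limma adjusted p = 0.00174), which is -0.02 relative to the median of all genes, and 0.53 for condylar cartilage against MC, which is -0.22 relative to it. Under the same totals 3 of the 5 filtered endothelial genes remained below MC in condylar cartilage, while Emcn (-0.98, adjusted p = 0.0786) and Egfl7 (-0.87, adjusted p = 0.0782) did not pass.

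A ratio within a library does not depend on its scaling. Vegfa divided by the summed CPM of the 9 endothelial genes was 0.0747 to 0.129 in bone (median 0.102), 0.194 to 1.70 in MC (median 0.490) and 0.823 to 3.37 in condylar cartilage (median 1.53). The 6 bone ratios were below all 12 cartilage ratios, and the cartilages overlapped. The highest MC ratio, 1.70, belonged to Fgfr2+/S252W embryo 1, and the same embryo had the highest condylar ratio, 3.37. Both the numerator and the denominator set these ratios, and the endothelial sum was the part that moved most between the tissues.

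**Figure D3:**
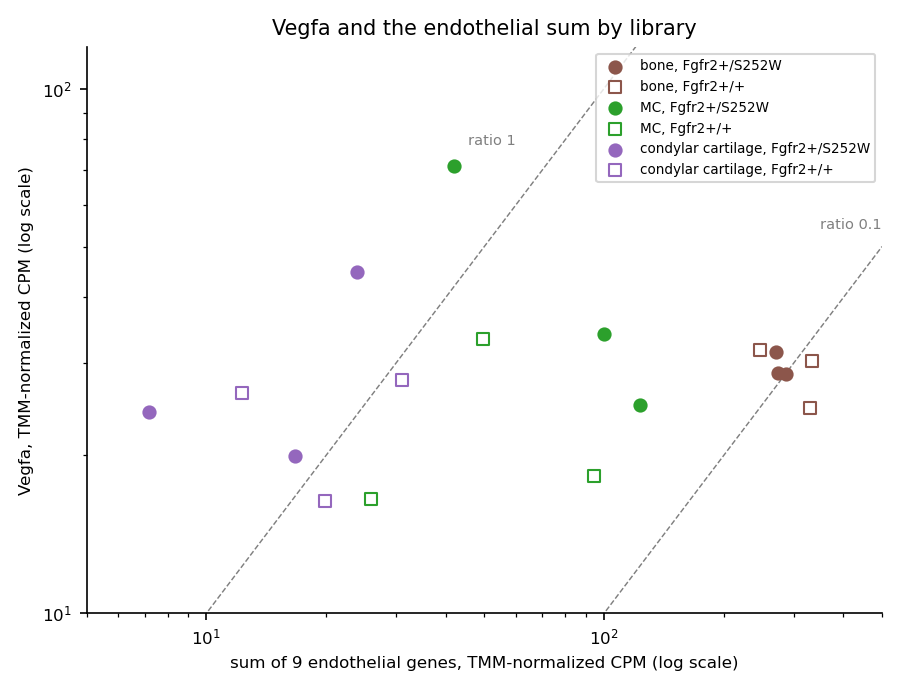
The plot of Vegfa against the endothelial genes gives, for each of the 18 libraries, Vegfa in CPM on the vertical axis and the summed CPM of the 9 endothelial genes on the horizontal axis, both on log scales, with dashed lines where the ratio is 0.1 and 1. Bone lies along the line at 0.1, condylar cartilage around the line at 1, and MC in between with a wide spread.

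Within a tissue, 27 relations between Vegfa and an endothelial gene were computed over 6 embryos each, on log2 CPM, and none passed after adjustment. In bone the Pearson r was negative for 8 of 9 genes, with a median of -0.54. The lowest was for Tie1 (r = -0.86, exact permutation p = 0.0181, adjusted p = 0.488, and rho = -0.94, exact permutation p = 0.0167, adjusted p = 0.225), and without the 2 embryos farthest from the median it was -0.60. These libraries share their scaling, and on FPKM of raw totals the bone median was 0.07. It was -0.84 without Fgfr2+/+ embryo 3 and -0.36 without Fgfr2+/+ embryo 1. In MC the median r was 0.12, and -0.61 without Fgfr2+/+ embryo 3, the library with the fewest endothelial counts. In condylar cartilage it was -0.08, and 0.29 without Fgfr2+/+ embryo 1. Taken on deviations from the genotype mean, the median was -0.64 in bone and turned in both cartilages, to -0.28 in MC, with 7 of 9 negative, and to 0.36 in condylar cartilage. No relation of Vegfa with the endothelial genes between embryos was thus resolved in any tissue.

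The endothelial genes did vary together. After removal of group means, the correlations among the 5 that passed the filter were 0.57 to 0.84 over 18 libraries, and those with Vegfa were -0.31 to 0.11. These points share library and depth, and the values are descriptive.

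The tissues were also compared within each genotype. In Fgfr2+/+ embryos, 5 of the 5 filtered endothelial genes were higher in bone than in MC (32% of genes called), with log2 differences of 1.96 for Egfl7 to 3.31 for Emcn, and in Fgfr2+/S252W embryos 4 of 5 were (35.8% called), with 0.85 for Egfl7 (limma adjusted p = 0.264). The latter count was 2 without Fgfr2+/S252W embryo 1. For bone against condylar cartilage it was 5 of 5 in both genotypes (35.5 and 29.8% called). For condylar cartilage against MC, 3 of 5 were lower in Fgfr2+/+ (46% called), without Pecam1 (-0.93, adjusted p = 0.0840) and Egfl7 (-1.14, adjusted p = 0.118), and 4 of 5 in Fgfr2+/S252W (45% called), without Emcn (-1.38, adjusted p = 0.103). The Fgfr2+/+ count ran from 1 without Fgfr2+/+ embryo 1 to 5 without Fgfr2+/+ embryo 3, and it was 0 on raw library totals. Vegfa in bone against MC was 0.40 in Fgfr2+/+ (adjusted p = 0.415) and -0.50 in Fgfr2+/S252W (adjusted p = 0.267). On raw totals the Fgfr2+/+ value passed, at 1.33 (adjusted p = 0.00764), or 0.43 relative to the median of all genes.

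In bone, Egfl7 had the largest log2 difference between genotypes among the endothelial genes. Egfl7 had 8.29, 7.58 and 7.71 CPM in Fgfr2+/S252W bone and 12.2, 13.5 and 16.4 CPM in Fgfr2+/+ bone. The groups did not overlap, the unadjusted test fell below 0.05, and the Fgfr2+/S252W level was 0.561 of the other (log2 -0.83, SE 0.32, limma adjusted p = 0.50). No member passed in bone, where 0.0872% of genes did and 8.13% had an unadjusted p below 0.05, nor did any under the looser filter, where 0.141% did. Egfl7 passed when the bone libraries were fitted alone (-0.84, adjusted p = 0.0436) and with quality weights on the libraries (-0.81, adjusted p = 0.0462), where 1.14 and 5.14% of all genes tested passed, and it stayed between -0.93 and -0.71 when any 1 bone library was left out.

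Emcn was also without overlap in bone, with 22.6, 22.3 and 23.3 CPM in Fgfr2+/S252W and 28.8, 32.8 and 28.2 CPM in Fgfr2+/+ embryos (log2 -0.39, SE 0.29, limma adjusted p = 0.810). For the remaining 7 endothelial genes the log2 differences were -0.12 to 0.14, and their groups overlapped. Among the 5 that passed the filter, 2 were thus lower without overlap, where 9.86% of the filtered genes were. Vegfa differed by 0.03 (SE 0.29, adjusted p = 0.993).

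Marker lists of other cells were also summed in the same bone libraries, and none of their tested genes passed between genotypes. The summed red blood cell markers were 313 to 595 CPM in Fgfr2+/S252W and 1250 to 1503 CPM in Fgfr2+/+ bone. Macrophage markers summed to 100 to 135 CPM against 69.8 to 71.9 CPM, mostly through Csf1r (log2 difference 0.94), while C1qb and C1qc gave -2.25 and -1.68. The study counted Csf1r among osteoclast genes that it reported as upregulated in mutant bone. This sum therefore does not stand for macrophages alone. Muscle markers summed to 56.6 to 129 CPM against 128 to 734 CPM, which overlap, markers of mural cells to 162 to 170 CPM against 185 to 229 CPM, and cartilage markers to 244 to 333 CPM against 56.8 to 202 CPM. Mitochondrial genes took 23.4 to 23.6% of counts in Fgfr2+/S252W bone and 36.0, 34.8 and 20.4% in Fgfr2+/+ embryos 1, 2 and 3. Gm42418 took 5.58, 5.94 and 6.49% of counts in Fgfr2+/S252W bone and 9.05, 8.57 and 9.33% in Fgfr2+/+ bone, without overlap. Their part in the values of Egfl7 and Emcn was not tested.

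In MC the endothelial genes were spread too widely to resolve a difference. Kdr had 10.4, 23.0 and 14.9 CPM in Fgfr2+/S252W against 13.4, 5.17 and 4.50 CPM in Fgfr2+/+ embryos, a log2 difference of 0.91 (SE 0.53, limma adjusted p = 0.426), and Tek gave 1.48 (95% interval -0.53 to 3.49, looser filter). Pecam1, Flt1 and Esam were 0.63, 0.88 and 0.87, and every one of the 9 overlapped between genotypes, where 13.5% of the filtered genes did not. These differences moved widely when 1 library was left out. Pecam1 ran from 0.035 (without Fgfr2+/+ embryo 3) to 1.45, Flt1 from 0.083 (without Fgfr2+/+ embryo 2) to 2.29, Tek from 0.50 (without Fgfr2+/+ embryo 3) to 2.95 and Kdr from 0.63 (without Fgfr2+/+ embryo 3) to 1.59, each highest without Fgfr2+/+ embryo 1. Esam changed sign, from -0.066 (without Fgfr2+/+ embryo 3) to 1.69. None of the 10 members passed in limma, edgeR or DESeq2. Over all genes limma called 0, with 15.4% at an unadjusted p below 0.05, while edgeR called 90 (0.785%) and DESeq2 423 (3.69%), and limma called 138 without Fgfr2+/+ embryo 2 and 42 without Fgfr2+/+ embryo 3. The Fgfr2+/+ libraries were themselves far apart. The 9 endothelial genes summed to 94.3 CPM in embryo 1, which carried the osteoblast genes Ibsp and Sp7, 49.5 CPM in embryo 2 and 25.9 CPM in embryo 3. Fgfr2+/S252W embryos 1, 2 and 3 had 42.0, 123 and 99.8 CPM. On FPKM of raw totals, Fgfr2+/+ embryo 1 was the highest of MC, 23.5, and Fgfr2+/+ embryo 3 the lowest, 2.96. Markers of macrophages summed to 58.8 to 90.1 CPM in Fgfr2+/S252W MC and 17.5 to 46.5 CPM in Fgfr2+/+ MC, and those of mural cells to 257 to 346 CPM against 138 to 248 CPM. The part of bone and of these cells in the MC values was not tested.

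Vegfa had the most distinct genotype value in MC, at 71.2, 25.0 and 34.1 CPM in Fgfr2+/S252W and 18.3, 33.3 and 16.5 CPM in Fgfr2+/+ embryos. The groups overlapped, and the log2 difference was 0.97 (SE 0.37, 95% interval 0.20 to 1.75, limma adjusted p = 0.236). It was 0.50 without Fgfr2+/S252W embryo 1, whose MC had 7201 CPM of Col2a1 and 167 CPM of Cnmd, a cartilage matrix protein gene that restrains vessels. Hypertrophic markers summed to 4.41 to 7.70 CPM in Fgfr2+/S252W MC and 4.50 to 29.2 CPM in Fgfr2+/+ MC. The part of the cartilage content of the pieces, or of hypertrophic cells, in the Vegfa value was not tested.

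In condylar cartilage, Pecam1 had 1.21, 1.29 and 1.92 CPM in Fgfr2+/S252W and 4.13, 2.99 and 5.78 CPM in Fgfr2+/+ embryos. The groups did not overlap, and the log2 difference was -1.53 (SE 0.61, 95% interval -2.81 to -0.25, limma adjusted p = 0.998), on 15 to 64 counts per library. Flt1 was without overlap as well, at 0.669 to 1.92 CPM against 2.33 to 2.89 CPM (-1.13, looser filter, adjusted p = 0.999, and -0.68 without Fgfr2+/S252W embryo 1). Over all genes limma and edgeR called 0 in this tissue and DESeq2 3, 3.06% had an unadjusted limma p below 0.05, and 5.1% of the filtered genes, which do not include Flt1, were lower without overlap. Cdh5, with more counts, gave -0.30 (SE 0.55, adjusted p = 0.998) and Vegfa 0.24 (SE 0.33, adjusted p = 0.998). With 1 library left out, Cdh5 ran from -0.67 to 0.22 and Vegfa from -0.040 to 0.46, so neither kept its sign. Muscle markers summed to 5.26 to 20.0 CPM in Fgfr2+/S252W and 9.32 to 475 CPM in Fgfr2+/+ condylar cartilage, and mitochondrial genes took 23.62 to 27.7% of counts against 19.4 to 23.55%, without overlap. Their part was not tested.

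**Figure D4:**
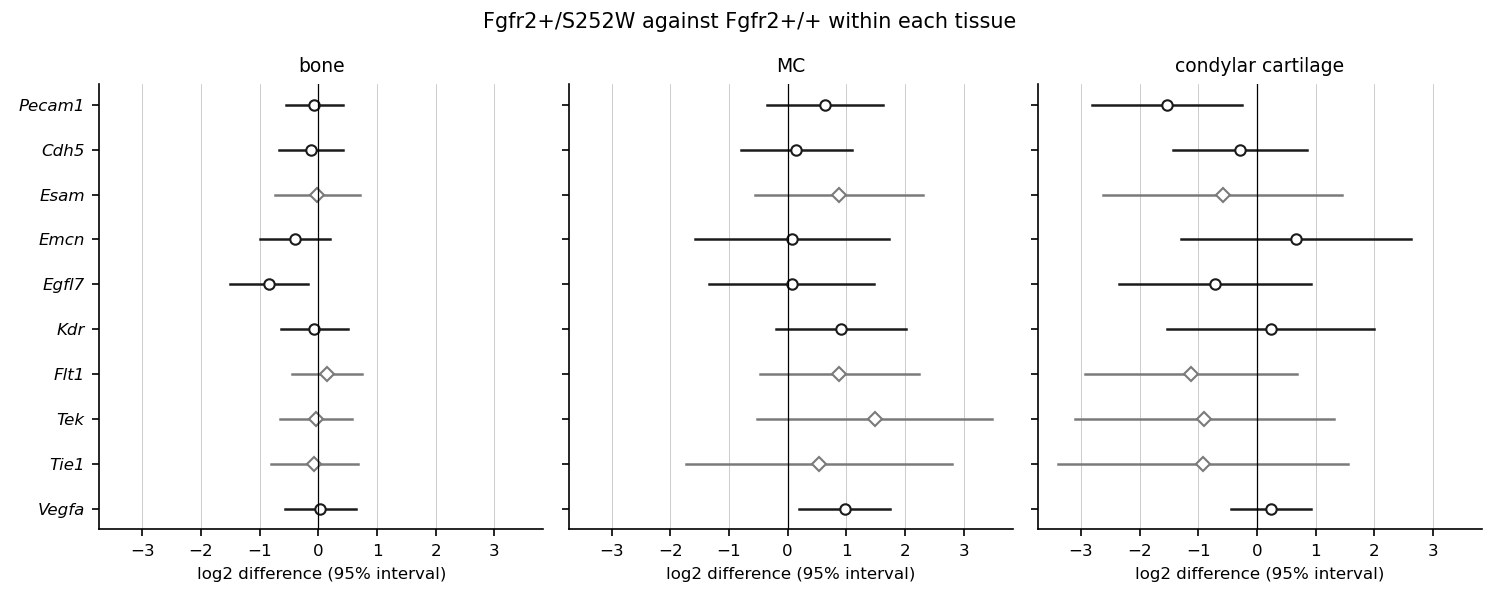
The plot of genotype differences gives the log2 difference of Fgfr2+/S252W against Fgfr2+/+ with its 95% interval for each gene in each tissue, with the same symbols as in the plot of tissue differences. All symbols are open, Egfl7 in bone (-0.83), Vegfa in MC (0.97) and Pecam1 in condylar cartilage (-1.53) have intervals that leave out 0.

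Whether the tissue differences depended on genotype was tested as an interaction. No member passed in any of the 3 comparisons, where 0.0349, 0 and 0% of genes did and 9.12, 2.86 and 10.4% had an unadjusted p below 0.05 for bone against MC, bone against condylar cartilage and condylar cartilage against MC. The lowest p was that of Pecam1 for condylar cartilage against MC, where the difference in Fgfr2+/S252W minus that in Fgfr2+/+ was -2.08 (SE 0.66, limma adjusted p = 0.289), and -1.38 without Fgfr2+/+ embryo 3. In the 3 comparisons, in the same order and over all genes, DESeq2 called 68, 2 and 40 genes and edgeR 1, 0 and 0. For Vegfa in bone against MC the interaction was -0.89 (SE 0.47, adjusted p = 0.571), and -0.36 without Fgfr2+/S252W embryo 1.

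The filter kept 2 of the 4 other ligands of the family, Vegfb and Vegfc. Vegfb, whose product binds VEGFR1, had 4.74 to 6.62 CPM in bone, 3.00 to 13.8 CPM in MC and 1.16 to 5.64 CPM in condylar cartilage, with log2 differences of -0.20 for bone against MC (limma adjusted p = 0.609) and 1.06 for bone against condylar cartilage (adjusted p = 0.0111). Vegfc, a ligand of lymphatic growth, was highest in MC, at 3.53 to 10.9 CPM, against 1.69 to 3.32 CPM in bone and 0 to 0.258 CPM in condylar cartilage. MC did not overlap the other tissues for Vegfc, and bone against MC was -1.68 (adjusted p = 0.00031). Pgf (1.87 to 3.48 CPM in bone, 0 to 6.30 CPM in MC and 0 to 0.249 CPM in condylar cartilage) and Vegfd did not pass the filter, and Vegfd reached 8.05 CPM in MC against 1.00 CPM at most in bone. Markers of lymphatic vessels summed to 25.7 to 33.1 CPM in bone, 3.21 to 13.3 CPM in MC and 1.98 to 5.79 CPM in condylar cartilage.

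The co-receptors were abundant in MC as well as in bone. Nrp1, a neuropilin that binds VEGFA, had 24.3 to 37.9 CPM in bone, 35.4 to 57.6 CPM in MC and 4.74 to 20.6 CPM in condylar cartilage, and was lower in bone than in MC (log2 -0.58, SE 0.22, limma adjusted p = 0.0338). Nrp2, the neuropilin of lymphatic signalling that is also expressed outside vessels, was the most abundant of these genes, at 608 to 832 CPM in bone, 547 to 698 CPM in MC and 87.1 to 189 CPM in condylar cartilage (bone against MC 0.22, adjusted p = 0.0755). Both were lower in condylar cartilage than in MC, by log2 differences of -2.23 and -2.16. Flt4, the receptor of VEGFC, did not pass the filter and had 23.2 to 30.7 CPM in bone and at most 7.99 CPM in the cartilages. The angiopoietins were highest in bone: Angpt1, the ligand that activates TIE2, had 44.8 to 66.6 CPM there and 7.48 to 29.4 CPM in MC (bone against MC 2.13, adjusted p = 5.51e-06), and Angpt2, its context-dependent antagonist, had 15.0 to 18.4 CPM and 2.44 to 10.9 CPM (1.33, adjusted p = 0.00038). Angpt1 did not differ detectably between the cartilages (-0.29, adjusted p = 0.353), whereas Angpt2 was lower in condylar cartilage (-1.24, adjusted p = 0.000369).

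A list of 25 further endothelial genes had 11 that passed the filter, with a median log2 difference of 1.17 for bone against MC, 1.41 for bone against condylar cartilage and -1.02 for condylar cartilage against MC. Of these, 6 were higher and 1 lower in bone than in MC, 8 higher and 1 lower in bone than in condylar cartilage, and 1 higher and 6 lower in condylar cartilage than in MC, that is, 7, 9 and 7 of 11 called where 49.5, 47 and 57.7% of all genes tested were. Cd93, a lectin-like surface protein, had 90.6 to 115 CPM in bone, 18.2 to 36.5 CPM in MC and 2.68 to 7.76 CPM in condylar cartilage, and Aplnr, the apelin receptor, 62.7 to 101, 5.61 to 22.6 and 0.736 to 2.98 CPM (bone against MC 2.07 and 2.55, limma adjusted p = 5.31e-08 and 3.04e-07). Both follow the members, with no overlap between the 3 tissues. Erg and Adgrf5 did not. Erg, an ETS factor of endothelium that cartilage also uses, had 13.6 to 24.9 CPM in bone, 29.6 to 106 CPM in MC and 47.6 to 81.4 CPM in condylar cartilage (bone against MC -2.02, adjusted p = 1.85e-06). Adgrf5, an adhesion receptor, had 34.7 to 46.1 CPM in bone, 4.28 to 15.8 CPM in MC and 22.6 to 70.8 CPM in condylar cartilage (condylar cartilage against MC 2.12, adjusted p = 1.10e-06).

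Of 6 genes that sense oxygen upstream of Vegfa, all of which passed the filter, 3 were higher and 1 lower in bone than in MC, 0 higher and 2 lower in bone than in condylar cartilage, and 4 higher and 1 lower in condylar cartilage than in MC (medians 0.31, 0.13 and 0.92), beside 49.5, 47 and 57.7% of all genes called in either direction. Egln3, a prolyl hydroxylase that is induced by hypoxia, had 3.33 to 7.11 CPM in bone and 0.770 to 7.50 CPM in condylar cartilage but 0 to 0.700 CPM in MC (bone against MC 4.30, SE 0.68, limma adjusted p = 6.40e-05). Epas1 (HIF-2alpha) and Egln1 gave 1.41 (adjusted p = 0.0046) and 0.52 (adjusted p = 0.0232) for bone against MC, and Vhl, which marks HIF for degradation, -0.74 (adjusted p = 0.00262).

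Of 7 genes of vessel inhibitors, 5 passed the filter, with 1 higher and 3 lower in bone than in MC, 2 higher and 3 lower in bone than in condylar cartilage, and 2 higher and 2 lower in condylar cartilage than in MC (medians -0.74, -0.40 and 0.48), beside 49.5, 47 and 57.7% of all genes called. Cnmd (chondromodulin) was at most 0.147 CPM in bone, 8.73 to 167 CPM in MC and 169 to 302 CPM in condylar cartilage (bone against MC -8.47, SE 1.18, limma adjusted p = 1.94e-05). Thbs1, a thrombospondin, was also highest in condylar cartilage, at 669 to 1167 CPM, against 69.1 to 137 CPM in bone and 51.3 to 399 CPM in MC (bone against MC -0.74, adjusted p = 0.0178). Thbs2 was highest in MC, at 378 to 524 CPM (bone against MC -0.99, adjusted p = 0.000114), and Serpinf1, the gene of pigment epithelium-derived factor, in bone, at 311 to 427 CPM (2.32, adjusted p = 5.31e-08). No gene of these 6 lists passed between genotypes in any tissue.

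Among 11361 genes compared, those most like Vegfa over the 18 libraries were Mtif3 (Pearson r = 0.84), Selenon (0.82), Hmgxb4 (0.79), Suox (0.76) and Flot1 (0.74). Those most like the mean of the 5 filtered endothelial genes, after removal of group means, were Cmtm3 (0.92), Cdkn2c (0.90), Zfp644 (0.88), Rasgrp3 (0.88) and Steap4 (0.88). Members were not eligible for either list. These values describe 18 libraries that share embryos and depth.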

How the data were processed

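Laser-captured tissue of each embryo was amplified with NuGEN Ovation RNA-Seq v2, made into Nextera XT libraries and sequenced in pairs. The authors trimmed with cutadapt, aligned to mm10 with STAR and, per the file headers, counted with featureCounts 1.5.0-p1 on Ensembl release 75. The deposited values are raw counts per gene, made without regard to strand. RSEM is named in the submitters' notes, and its values were not used here. From the counts, genes above 1 FPKM in 50% or more of the libraries were kept, scaled by TMM (edgeR 4.0.16) and tested with voom and limma 3.58.1 in R 4.3.3, with Benjamini-Hochberg adjustment over all genes tested and a threshold of 0.05. The prior count was 0.5. Adjusted p-values are limma's, except where DESeq2 is named and for the relations of Vegfa, which are adjusted exact permutation p-values.

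Genotypes were compared within each tissue over 6 group means, and tissues and interactions with the embryo as a block, since each embryo gave all 3 tissues according to the codes in the descriptions. Residuals of the same embryo in 2 tissues correlated by -0.0814 to 0.111. Relations between genes used exact permutation tests, two-sided. The fits across all genes were first tested on simulated data. Alternatives were filterByExpr, no filter, other normalizations, library quality weights, edgeR's quasi-likelihood test, DESeq2 1.42.0, other blocks, each tissue alone and each replicate left out. Totals of 8218548 to 15585778 counts set the precision, and 18 libraries of 6 embryos limit it further. The members and lists were chosen with earlier results of these data known. Named were the 10 members, the kept ligands, receptors and angiopoietins, up to 4 genes of a list with the smallest p for bone against MC, and the 5 genes most alike.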

Additional observations from a re-analysis of the deposited data

How the results depend on the processing

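The counts of members past the threshold moved with the filter on expression, which sets how many of the 10 are tested. With filterByExpr they were 8 for bone against MC, 9 for bone against condylar cartilage and 9 for condylar cartilage against MC (48.1, 48.9 and 57.5% of genes called), and with no filter 8 and 9 for the first 2 (50.3 and 30.9%). Within Fgfr2+/+ embryos both filters gave 8 and 9 for bone against MC and against condylar cartilage (30 and 36.4% of genes called with filterByExpr, 18.6 and 21% without a filter). Within Fgfr2+/S252W embryos both gave 7 and 9 (35 and 31.5%, and 36.8 and 18.9%), and condylar cartilage against MC gave 8 with filterByExpr (45%) and 7 without a filter (27.6%). Raw library totals, chosen after seeing the data, gave 3 for condylar cartilage against MC (64.3% of genes called) and 0 for it in Fgfr2+/+ (49%), and they also moved the median of all genes by 0.18 (log2) for genotype in bone and -0.11 in condylar cartilage. Egfl7 made the count for genotype in bone 1 with quality weights (5.14% of genes called) and 1 with bone libraries alone (1.14%), against 0.0872% in the fit reported. With an embryo left out, condylar cartilage against MC in Fgfr2+/+ ran from 1 to 5, and bone against MC in Fgfr2+/S252W from 2 to 4.

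The members' own differences reversed only where they had not passed. On raw totals, the genotype difference in bone became 0.12 for Pecam1, 0.062 for Cdh5, 0.12 for Kdr, 0.14 for Tek, 0.10 for Tie1 and 0.15 for Esam, and with no filter 0.011 for Tek and 0.029 for Esam. In MC it became -0.021 for Tie1 and -0.015 for Emcn with edgeR and -0.0011 for Tie1 with DESeq2, and in condylar cartilage -0.013 for Kdr with edgeR and 0.10 for Esam with quality weights. Vegfa became 1.04 for bone against MC, 0.53 for condylar cartilage against MC, 0.75 and 0.21 for these in Fgfr2+/S252W and 0.062 for the interaction of bone against condylar cartilage on raw totals. With quality weights Vegfa became 0.055 for bone against MC and 0.0026 for that interaction, and with no filter 0.10 for bone against MC. On raw totals Vegfa passed for bone against MC and, at 1.33, for the same within Fgfr2+/+. Apart from that scaling, the cause of these shifts was not tested.

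Replicate numbers shared by the genotypes were not taken as pairs in the fit reported. Of 9 correlations of equal numbers, 3 were over 0.1 (-0.134 to 0.267), too few values to decide whether equal numbers belong together. For 2 tissues of the same embryo, 1 of 18 was over 0.1, and that block was kept because of the codes in the descriptions. With the number as a replicate block no member passed between genotypes, and the difference became -0.073 for Tie1 and -0.015 for Emcn in MC and -0.00012 for Kdr in condylar cartilage. Without the embryo block, Esam for bone against MC passed (1.06), and Tek (-1.52) and Tie1 (-1.23) for condylar cartilage against MC did not.

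With 1 replicate left out at a time, these log2 differences crossed 0. For genotype in bone the ranges were Esam -0.20 to 0.10, Flt1 -0.024 to 0.25, Kdr -0.24 to 0.038, Pecam1 -0.22 to 0.055, Tek -0.16 to 0.10, Tie1 -0.19 to 0.040, Vegfa -0.071 to 0.10. In MC they were Cdh5 -0.17 to 0.78, Egfl7 -0.65 to 0.72, Emcn -0.73 to 0.88, Esam -0.066 to 1.69, Tie1 -0.94 to 1.77, and in condylar cartilage Cdh5 -0.67 to 0.22, Kdr -0.88 to 1.04, Tek -1.66 to 0.60, Vegfa -0.040 to 0.46. For Vegfa they were -0.17 to 0.22 for bone against MC, -0.75 to 0.036 for the same in Fgfr2+/S252W, -0.080 to 0.38 for bone against condylar cartilage in Fgfr2+/S252W, -0.0030 to 0.52 for the same in Fgfr2+/+, -0.48 to 0.055 for condylar cartilage against MC, -1.07 to 0.033 for the same in Fgfr2+/S252W, -0.21 to 0.28 for the same in Fgfr2+/+, and -0.42 to 0.11 for the interaction of bone against condylar cartilage. For Pecam1 the interaction of bone against MC ran from -1.66 to 0.0026. Vegfa for condylar cartilage against MC in Fgfr2+/S252W passed without Fgfr2+/S252W embryo 3 (-1.07, adjusted p = 0.0292). Without Fgfr2+/+ embryo 1, Egfl7 no longer passed the filter.

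For bone against condylar cartilage, each of the 9 endothelial genes passed under every alternative in which it was tested.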
